A study of Zea mays with 4 samples.

Results

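The genes INO1, lpa3 and phytase1 of inositol phosphate and phytate metabolism were followed in developing maize kernels of the bt2 mutant and of the wild type. They were chosen by name: every probe set whose platform symbol, or whose current RefSeq symbol or synonym, equals one of these names was taken. Each name matched 1 gene with 1 probe set, so there were 3 genes among the 1108 genes that the platform annotation pairs with a probe set. The platform annotation gave no gene for 16168 maize probe sets, and further copies of these genes among them were not analysed here.

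Phytate, or inositol hexakisphosphate, is the main store of phosphorus in cereal seeds, and in the maize kernel it is laid down mostly in the embryo's scutellum and in the aleurone. Its synthesis begins when myo-inositol phosphate synthase turns glucose 6-phosphate into inositol phosphate, continues as kinases add further phosphates to the ring, and ends with transport of phytate into storage vacuoles. Phytases take the phosphates off again, a step best known from germinating seeds. Maize mutants poor in seed phytate are named lpa, for low phytic acid.

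Kernels of 2 bt2 mutant samples, carrying the bt2-H2328 allele, and of 2 wild-type samples were collected at 35 days after pollination from untreated greenhouse plants, and each sample was measured on 1 one-colour Affymetrix maize array. The product of Bt2 is a small subunit of the starch synthesis enzyme ADP-glucose pyrophosphorylase, found mainly in endosperm, and the study asked whether other pathways are induced to use the excess sucrose when starch synthesis is blocked. The labels do not say how many plants or kernels a sample holds, so the spread between samples may be technical. RNA amounts were 20 and 17 µg in mutants 1 and 2, and 20 µg in each wild type. In whole kernels, fewer cells of a type and less RNA per cell cannot be told apart.

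Expression is given as GCRMA values in log2 units, where a step of 1 is a doubling. bt2 itself, measured as a check of the labels, read 10.13 and 10.12 in the mutants, against 12.67 and 12.64 in the wild types. Differences were tested with limma across the 10458 maize probe sets that reached a log2 value of 4 on at least 2 of the 4 arrays, with Benjamini-Hochberg adjustment over all of them and a threshold of 0.05. At that threshold 43.2% of these probe sets differed, 22.1% lower and 21.0% higher in the mutant, and in 78.5% the groups did not overlap, 39.2% with the mutant lower and 39.3% with it higher, so neither a call nor separate groups sets a gene apart in these data. Bacterial poly-A control RNAs on the mutant arrays read a median of 1.20 above those on the wild-type arrays. Centring on them lowered every difference by 1.23 and moved the median difference to -1.25, against -0.01 on the array-wide scale, and on that scaling 78.7% of probe sets were lower and 2.91% higher in the mutant.

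INO1 fell, lpa3 did not pass the test, and phytase1 lay at background values in the mutants, against measurable values in the wild types. Thus of the 3 genes, the one that opens the synthesis of inositol and the one that acts in phytate breakdown read lower in the mutant, while the kinase that lies between them gave nearly the same value on all 4 arrays. All 3 genes passed the filter on low values, but phytase1 passed it through the wild types alone. With both of its mutants under 4, the filter set the order of its groups in advance, and its call in part.

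INO1 (gene LOC542540) encodes myo-inositol phosphate synthase, the step that commits sugar phosphate to inositol. It read 9.72 and 10.26 in mutants 1 and 2, against 12.09 and 12.51 in wild types 1 and 2. Both mutants lay below both wild types, and the distance between the groups was several times the distance within either, which was 0.54 between the mutants and 0.42 between the wild types. The group means were 9.99 ± 0.38 in the mutant and 12.30 ± 0.30 in the wild type (SD, n = 2 arrays each). The difference was -2.31 (SE 0.25, 95% interval -2.97 to -1.65), or 4.96-fold lower in the mutant, with a limma adjusted p of 0.00808. It was -3.54 when arrays were centred on the poly-A controls. Without any 1 of the 4 arrays the difference stayed between -2.04 and -2.58, but the limma adjusted p, then from 3 arrays, was 0.0508 to 0.082 and no longer passed.

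Among all tested probe sets, 271 (2.59%) had a difference as low as that of INO1 or lower. These gaps were wider than the medians over all tested probe sets, 0.20 between mutants and 0.18 between wild types. Gaps as wide as that between the mutants for INO1 occurred in 14.5% of probe sets, and gaps as wide as that between its wild types in 18.5%. The RefSeq entry of INO1 also carries the synonym lpa1, a name that the entry of the transporter gene MRP4 carries too, so the name lpa1 alone does not tell these genes apart. RefSeq lists a further gene under the name mips2, which the platform annotation pairs with no probe set. Whether the INO1 probe set also reads near-identical copies was not tested.

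lpa3 (gene LOC606457) encodes myo-inositol kinase, which phosphorylates free inositol and so feeds it back into phytate synthesis. It read 8.90 and 9.00 in the mutants, against 8.93 and 8.97 in the wild types. The wild-type values lay between those of the mutants, and the 4 arrays spanned no more than the gap between the mutants, 0.10. Both group means were 8.95, with an SD of 0.07 in the mutant and 0.03 in the wild type (n = 2 arrays each). The difference was 0.00 (SE 0.12), with a 95% interval of -0.31 to 0.31 and a limma adjusted p of 1.0. This interval leaves room for small changes either way, but not for one like that of INO1. That statement holds for the array-wide scale: when centred on the poly-A controls lpa3 differed by -1.23 with a limma adjusted p of 0.000132, a difference close to the shift of all probe sets on that scaling.

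phytase1 (gene LOC542349) encodes a phytase, which releases phosphate from phytate. It read 1.98 and 1.99 in the mutants, against 4.75 and 6.35 in the wild types. Both mutant values lay under 4, near the low end of the scale, where GCRMA values carry little information, and the wild types lay above 4 but 1.60 apart. A gap that wide between the wild types occurred in 0.535% of tested probe sets, against a median gap of 0.18. With the mutants under 4, only a bound can be given: set at a value of 4, the mutant lay at least 2.93-fold lower than the wild-type mean of 5.55 in phytase1. That bound rests on which wild type is used, as it was 5.10-fold without wild type 1 and 1.68-fold without wild type 2.

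The fitted difference of phytase1 was -3.56 (SE 0.57), with a limma adjusted p of 0.0135. It is a difference from background values and not a measured fold. Leaving out mutant 1 gave a limma adjusted p of 0.111, leaving out mutant 2 gave 0.109 and leaving out wild type 2 gave 0.0805, while leaving out wild type 1 gave 0.0486. A second phytase gene, phytase2, is listed by RefSeq but paired with no probe set in the platform annotation.

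**Figure D1:**
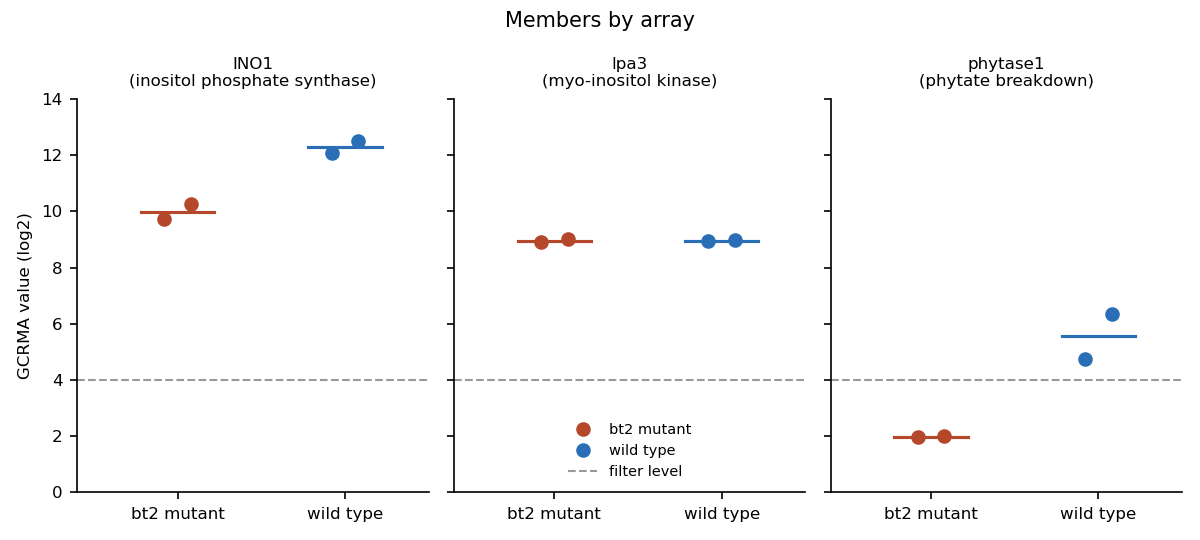
GCRMA values (log2) of INO1, lpa3 and phytase1, with a point for each array, a bar at the group mean, bt2 mutants in red and wild types in blue. INO1 lies near 10 in the mutants and above 12 in the wild types, lpa3 lies near 9 on all 4 arrays, and phytase1 lies under the dashed line at 4 in both mutants and above it, 1.60 apart, in the wild types.

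**Figure D2:**
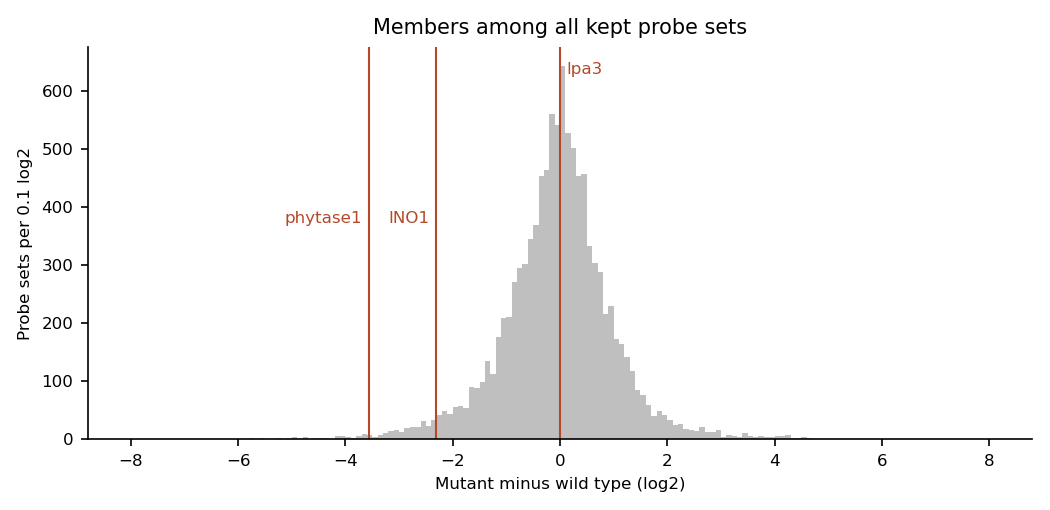
Histogram of the mutant minus wild-type difference (log2) of the 10458 tested probe sets in bins of 0.1, with the 3 genes marked by red lines. lpa3 stands at the centre of the distribution, and INO1 and phytase1 in its lower tail. As low as INO1 or lower were 271 probe sets, while the place of phytase1 rests on background values in the mutants and is not ranked.

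The genes were also compared with each other within arrays, where a scaling common to an array cancels. The offset between 2 probe sets has no meaning of its own, and only its shift between groups is read. INO1 minus lpa3 was 0.82 and 1.26 in the mutants, against 3.16 and 3.54 in the wild types. INO1 thus shifted by -2.31 relative to lpa3, whatever scaling was common to all probe sets of an array. With quantile normalization, which is not common to all probe sets, the shift was -2.22. lpa3 minus phytase1 was 6.92 and 7.01 in the mutants, against 4.18 and 2.62 in the wild types. INO1 minus phytase1 was 7.74 and 8.27 in the mutants, against 7.34 and 6.16 in the wild types. The mutant offsets of the pairs with phytase1 set a gene against background values, so their shifts are not measured sizes and the separation of their groups is not read. An exact two-sided permutation test over 2 against 2 arrays cannot give a p below 0.333, and it gave 0.333 for each of the 3 pairs, also after Benjamini-Hochberg adjustment.

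Whether INO1 or phytase1 fell further cannot be told from these values. The bound of phytase1, at least 2.93-fold, lies under the 4.96-fold fall of INO1. The shift of INO1 minus phytase1 was 1.25 on the deposited scale and turned to -0.60 with 16 added to each linear value, where its exact permutation p was 0.667.

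The remaining measured genes of the phytate pathway lie between INO1 and phytase1 in the order of steps. ITPK1, listed also as lpa2, encodes an inositol phosphate kinase that adds phosphates to the ring. It read 5.11 and 5.58 in the mutants, against 5.49 and 5.71 in the wild types. The groups overlapped, at a difference of -0.26 (SE 0.24) and a limma adjusted p of 0.421. MRP4, the gene known as lpa1, encodes an ABC transporter that moves phytate into storage vacuoles. It read 11.40 and 11.19 in the mutants, against 11.32 and 10.83 in the wild types. These groups overlapped too, at a difference of 0.22 (SE 0.20) and a limma adjusted p of 0.415.

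The 95% intervals, from 2 arrays a group, were -0.89 to 0.38 for ITPK1 and -0.32 to 0.76 for MRP4, so changes within these limits remain possible. In the list of inositol and phytate genes as matched, 2 of 5 genes fell, none rose and 3 did not pass, and the median difference was -0.26, against -0.01 over all tested probe sets. The falls were INO1 and phytase1, of which phytase1 passed the filter through the wild types alone, and 22.1% of all tested probe sets fell. On the poly-A scaling all 5 were called lower, as were 78.7% of all tested probe sets, with a median of -1.49 against -1.25 over all of them, which says little about these genes. A sixth match, MIK-KD1, came through the synonym MIK, which lpa3 shares. Its symbol was read as that of a kinase-domain gene, with no product description to check this, and it was counted apart. MIK-KD1 read -0.50 with a limma adjusted p of 0.0754.

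Inositol is also used to make phosphoinositides, the inositol lipids of membranes and signalling. PIS, named for phosphatidylinositol synthase, which joins inositol to a lipid, read 8.57 and 8.15 in the mutants, against 7.37 and 7.36 in the wild types. Both mutants lay above both wild types. The difference was 0.99 (SE 0.19), or 1.99-fold higher in the mutant, with a limma adjusted p of 0.0187, a call that 21.0% of tested probe sets shared in that direction. On the poly-A scaling it was -0.23 and did not pass, and with each array left out the limma adjusted p was 0.073 to 0.133.

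PLC, a phospholipase C gene whose product splits phosphoinositides, read 6.78 and 6.80 in the mutants, against 6.71 and 6.83 in the wild types. The groups overlapped, with a difference of 0.02 (95% interval -0.37 to 0.41) and a limma adjusted p of 0.923. In the phosphoinositide list, 1 of 2 measured genes thus rose and 1 did not pass. No galactinol or raffinose synthase gene was matched. The single hit in that list, zmm16, is a MADS-box gene caught through the synonym sts1, at -0.18 and not past the threshold.

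**Figure D3:**
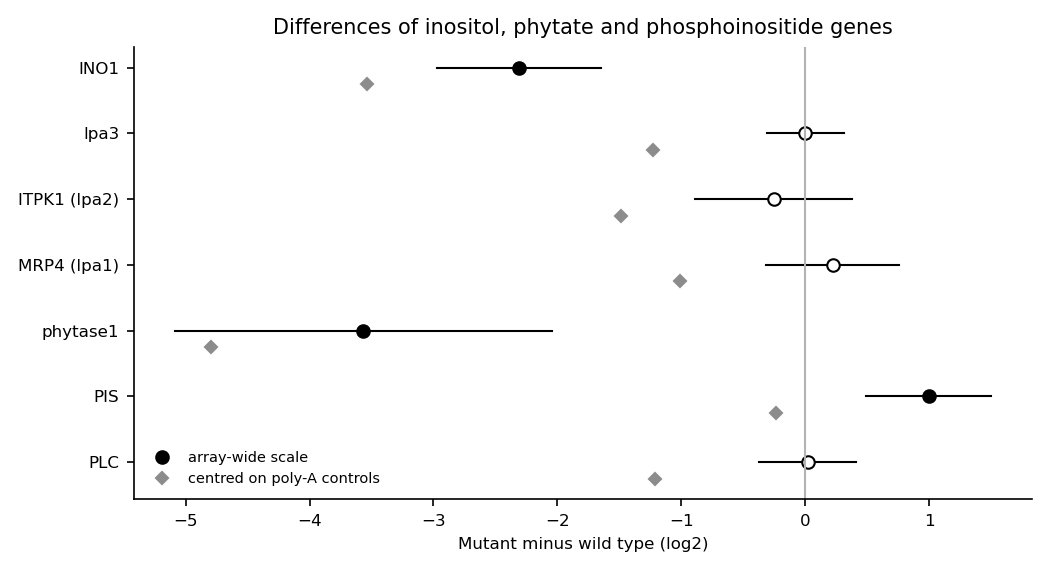
Mutant minus wild-type difference (log2) of the 5 measured inositol and phytate genes and of PIS and PLC. Circles with 95% limma intervals show the array-wide scale, filled where the adjusted p is under 0.05, and grey diamonds show arrays centred on poly-A controls, which moves each gene by -1.23; INO1 and phytase1 lie below 0 on both scalings, while PIS lies above 0 on the array-wide scale and at -0.23 on the other.

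Named genes whose profile over the 4 arrays was nearest to each of the 3 were picked by the smallest Euclidean distance after centring each gene on its own mean, over 692 other named genes with 1 probe set each. With 4 arrays, such a likeness mostly follows the difference between the groups and the gaps within them. Nearest to INO1 were endo1, at a distance of 0.16, the MADS-box gene zmm6 (listed as m6) at 0.20, and the ribosomal protein gene L29 at 0.23. endo1 read 5.64 and 6.13 in the mutants, against 7.82 and 8.25 in the wild types. Like INO1, each of these genes read higher in mutant 2 than in mutant 1 and higher in wild type 2 than in wild type 1.

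Nearest to lpa3 were genes that hardly differed on any array, namely the ribosomal protein genes RPS21 at 0.06 and rpp2a-4 at 0.07 and the cellulose synthase gene CesA-6 at 0.07. CesA-6, for example, read 9.27 and 9.29 in the mutants, against 9.30 and 9.33 in the wild types.

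Nearest to phytase1 were Scl1, a GRAS family gene, at 0.17, and BETL1 and meg2, at 0.19 and 0.44, which both mark the basal endosperm transfer layer, the tissue that takes up nutrients from the mother plant. Scl1 read 5.88 and 6.03 in the mutants, against 8.86 and 10.28 in the wild types, so that, unlike phytase1, it was above 4 on every array. BETL1 read 2.78 and 2.77 in the mutants, against 5.71 and 7.34 in the wild types. meg2 read 2.32 and 2.32 in the mutants, against 5.62 and 6.92 in the wild types. Both shared with phytase1 mutant values under 4 and a wild type 2 that exceeded wild type 1, by 1.63 in BETL1 and 1.30 in meg2, against 1.60 in phytase1.

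**Figure D4:**
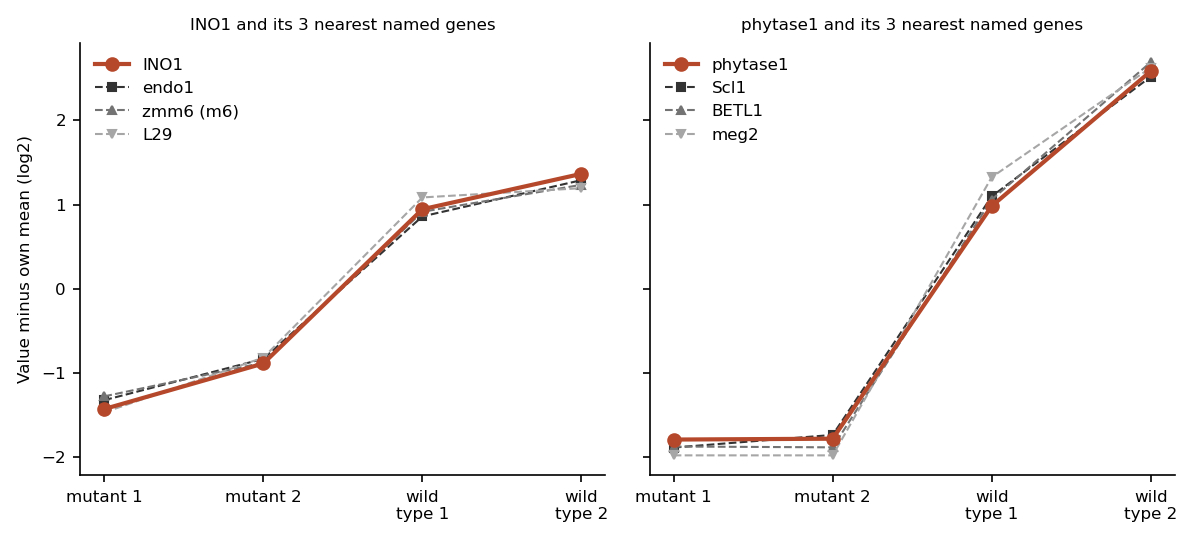
Values on the 4 arrays, each gene centred on its own mean (log2), for INO1 (left, red) and phytase1 (right, red) with the 3 nearest named genes of each in grey; the lines only join the points of a gene. INO1 and its neighbours read higher in mutant 2 than in mutant 1 and higher in wild type 2 than in wild type 1. phytase1, Scl1, BETL1 and meg2 are level in the mutants and higher in wild type 2 than in wild type 1. Of these, phytase1, BETL1 and meg2 lie under 4 in both mutants, where values carry little information. The neighbours were picked on these same values.

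Markers of kernel tissues were set beside the 3 genes. Genes caught only through a shared synonym (Hb and CADR1 in the embryo list, LOC541992 in the starchy endosperm list) were left out. Of 6 transfer layer markers, betl2 and INCW2 were under 4 on every array, and BETL1, meg2 and betl3 passed the filter only through the wild types, so their calls are in part set by the filter. They were lower in the mutant by bounds of at least 5.76-fold in BETL1, 4.82-fold in meg2 and 12.7-fold in betl3. betl4, the only one above 4 on every array, read 5.54 and 6.41 in the mutants, against 8.06 and 8.30 in the wild types, and fell by 2.21, as 22.1% of all tested probe sets fell. The summed level of this list, as log2 of the sum of linear values, was 6.26 and 6.80 in the mutants, against 9.04 and 9.80 in the wild types. In the mutants every gene in this sum except betl4 was under 4, so the difference between the sums is not a measured size. betl4 read lower in both mutants than in both wild types, as did 39.2% of all tested probe sets. In BETL1, meg2, betl3 and phytase1, with both mutants under 4, the filter set that order in advance, so it is not read. The 4 tested markers did not all share the profile of phytase1: the wild types were 0.24 apart in betl4 and 0.94 in betl3, against 1.60 in phytase1. BETL1 and meg2 had been picked above for their likeness to it. The part of these markers in the difference of phytase1 was not tested.

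Embryo markers were read on the array-wide scale, and their part in the difference of INO1 was not tested. Of 8 measured, 3 rose, none fell and 5 did not pass, where 21.0% of all tested probe sets rose and 22.1% fell. Of those that rose, vp1 had another tested probe set, at 0.065, that did not pass. Their median was 0.36, and their summed level was 16.99 and 16.93 in the mutants, against 16.72 and 16.53 in the wild types. On the poly-A scaling 7 of the 8 were called lower, near the 78.7% of all tested probe sets, with a median of -0.86, while INO1 was at -3.54. glb1, an embryo globulin, read 15.28 and 15.17 in the mutants, against 14.98 and 14.83 in the wild types.

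Among 5 aleurone markers, Nkd1 fell by 1.01, dek1 rose by 1.64, Sal1 read 0.35 and did not pass, and c1 and cr4 were under 4 on every array. Of all tested probe sets, 22.1% fell and 21.0% rose. The summed aleurone level was 10.86 and 10.84 in the mutants, against 10.91 and 10.87 in the wild types. That sum pools genes that moved in opposite directions, and the part of these markers in the difference of INO1 was not tested. On the poly-A scaling dek1 read 0.41 and did not pass.

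Of 10 starchy endosperm markers, 6 fell, none rose, 1 was removed by the filter and 3 did not pass, where 22.1% of all tested probe sets fell. This count depends on the probe set that stood for a gene. Other tested probe sets of sh1 and zp27, which did not pass, fell by 2.765 and 0.38. Those of ae1 and o2, which fell, did not pass, at -0.645 and -1.185, while those of FL2 and sh2 fell too. Their median was -1.18, with a summed level of 15.53 and 15.43 in the mutants, against 16.06 and 16.07 in the wild types. Of 4 genes listed for pericarp and maternal tissue, bde1 and zag2 fell, where 22.1% of all tested probe sets fell. ZAG1 did not pass, and p1 was under 4 on every array. Their summed level was 8.76 and 9.21 in the mutants, against 10.01 and 10.02 in the wild types. Whether bde1, zag2 and ZAG1 mark the pericarp at this stage was not tested. The summed levels of both lists, and INO1, were lower in both mutants than in both wild types, as were 39.2% of all tested probe sets. The part of these lists in the difference of INO1 was not tested. All these calls share the dependence on single arrays given above for INO1 and phytase1: limma called 0 probe sets when mutant 1, mutant 2 or wild type 2 was left out, although 4523, 4617 and 3633 had an unadjusted p under 0.05, and 1195 when wild type 1 was left out.

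**Figure D5:**
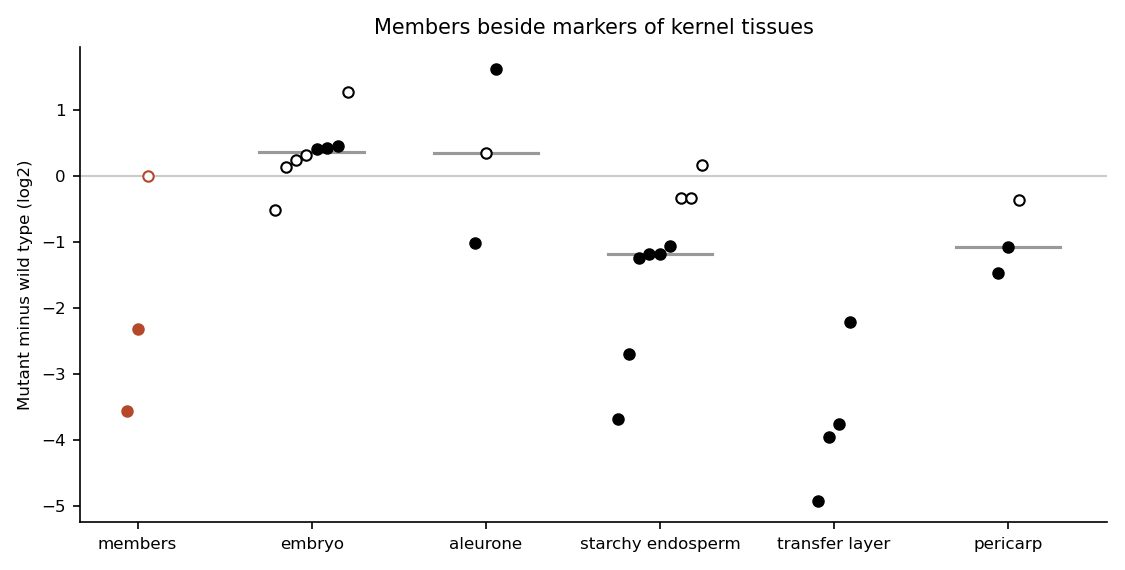
Mutant minus wild-type difference (log2, array-wide scale) of the 3 genes (red) and of tested markers of kernel tissues (black), 1 probe set per gene, filled where the limma adjusted p is under 0.05, with a grey bar at the median of each marker list other than the transfer layer. INO1 lies below every embryo and aleurone marker, while the place of phytase1 rests on background values in the mutants and is not ranked. The transfer layer markers lie at -2.21 or lower, of which only betl4, the highest, was above 4 in the mutants.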

How the data were processed

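The authors deposited log2 values, 1 for each probe set, and their processing notes name GCRMA as the method, per the labels. The log base was read from the values, which run from 1.31 to 15.44. Neither the GCRMA version nor whether the 4 arrays were normalized together is stated in those notes. Of 17734 probe sets, 113 were array controls and 1 had no values. Names came from the platform annotation, updated through Entrez identifiers with RefSeq (assembly Zm-B73-REFERENCE-NAM-5.0), which held 1060 of 1108 genes. No genome build is named, so no coordinates are given.

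Probe sets at 4 or more on at least 2 arrays were kept (10458, with 7162 removed) and fitted in limma 3.58.1 (R 4.3.3; lmFit, then eBayes with trend), two-sided; the procedure was tested on simulated data. SE is the moderated standard error. Pairs were compared with exact permutation tests (scipy 1.17.1). Where a gene had several probe sets, its brightest on average stood for it. Genes named were the 3 genes, bt2, all matches of the pathway lists and the 3 nearest named genes of each, with marker examples added after their values were seen. Genes and lists were chosen with earlier results of these data known. Alternatives changed the filter, scaling, variance model, array weights, pseudocount, block, threshold and arrays. The number of arrays limits the precision. Same-numbered samples did not deviate together (r = 0.02), and no label pairs them.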

Additional observations from a re-analysis of the deposited data

Results flagged for a closer look

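The array's poly-A control probe sets, which enter no comparison between genes, read higher in the mutants, with a median difference of 1.20 (SD 0.32 over 36 probe sets, which read only 4 RNAs and are not replicates), in 36 of 36, while hybridisation controls differed by 0.14 (SD 0.11 over 25). Relative to the poly-A controls INO1 was at -3.54 and lpa3 at -1.23. The cause was not tested.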

How the results depend on the processing

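INO1 kept its direction and its side of the threshold under 9 of 13 alternatives. phytase1 kept its side of the threshold under 8 of 12. Its direction could not turn, as its mutants lay under 4 and it passed the filter through the wild types alone. With an array left out, INO1 ranged from -2.58 to -2.04 and did not pass, phytase1 ranged from -4.37 to -2.77 and passed only without wild type 1, and lpa3 ranged from -0.05 to 0.05. These fits have 3 arrays, and the lone array of a group is assumed to vary like the other group. Calls over all probe sets then numbered 0 to 1195, against 4514, and calls in the list of 5 inositol and phytate genes 0 to 1, against 2. At an adjusted p of 0.01 there were 1134 calls and 1 in the list, and phytase1, at -3.56, no longer passed. Centring on poly-A controls gave 8536 calls and 5 in the list, and lpa3 passed at -1.23. Requiring a value of 4 on all 4 arrays removed phytase1 and left 1 call in the list. With a pseudocount of 16, INO1 minus phytase1 turned to -0.60, lpa3 minus phytase1 moved to 1.70, and phytase1 itself to -1.70 (limma adjusted p 0.0328), since a pseudocount shrinks differences from low values. With the replicate number as a block, INO1 and phytase1 passed at limma adjusted p of 0.0293 and 0.0331, differences of -2.31 and -3.56, and 3444 probe sets were called; the block changed no call of the 3 genes. INO1 minus lpa3 stayed between -2.53 and -2.09 under every alternative run on it. No gene had another probe set to use in the pairs. Values under 4 limit phytase1 to a bound.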
